A study of Mus musculus with 20 samples.

Results

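The genes described here encode proteins of the BCL2 family, which sets whether a cell keeps its mitochondrial outer membrane intact or undergoes apoptosis. They were picked by name as 10 rows of the deposited count tables: Bcl2, Bcl2l1, Mcl1, Bax, Bak1, Bcl2l11, Bbc3, Bmf, Bid and Pmaip1, out of 24391 genes. RNA was sequenced from 20 samples of E2-10HA, a mouse T cell hybridoma, which is a T cell fused to a tumour cell. The study asked how expression changes when the Notch intracellular domain (NICD), the part of the Notch receptor that acts in the nucleus, is overexpressed or when the histone variant H2A.Z is knocked out. H2A.Z guide samples (n = 6) carried lentiCRISPRv2 encoding guide RNAs for H2afz and H2afv, which both encode H2A.Z. CRISPR control samples (n = 6) carried that vector empty, and puromycin was the selection in both groups. BioNICD samples expressed the biotin ligase BirA together with biotin-tagged NICD, after histidinol selection and sorting, in the wild type form (n = 2) or as what the labels call the DEP mutant (n = 2). The NICD-ER line carried a Flag-tagged NICD fused to the hormone-binding part of the estrogen receptor and was sorted. Its samples received for 24 h either (Z)-4-hydroxytamoxifen (4-OHT), the ligand of the fusion (n = 2), or its solvent ethanol (n = 2). All 20 samples share the same hybridoma, and all 6 guide titles carry the same number, #12, so the guide samples count as 1 line. Cells with 4-OHT but without NICD-ER were not analysed here. Whether replicates were separate cultures is not in the labels, so the spread behind the p-values may be technical.

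As background, BCL2, BCL-XL (from Bcl2l1) and MCL1 hold the pore-forming proteins BAX and BAK in check. The BH3-only proteins BIM (from Bcl2l11), PUMA (from Bbc3), BMF, BID and NOXA (from Pmaip1) bind the antiapoptotic members, and some of them can also activate BAX and BAK directly. T cells depend on BCL2 and MCL1 for survival and on BIM for the removal of cells after an immune response, and PUMA and NOXA are textbook targets of p53. RBPJ is the DNA-binding partner of NICD, and FOXO factors are known to drive Bbc3 and Bcl2l11 in lymphocytes deprived of growth factors.

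Sequencing depth ran from 10704131 to 48238324 counts per sample. The targeted genes were lower in the guide samples than in every control: H2afz had 61 to 102 counts in guide samples and 285 to 441 in controls, and H2afv had 345 to 802 in guide samples and 1366 to 1966 in controls. Groups were taken from the titles, which the plasmid field matches, although the descriptions of 6 of the 8 CRISPR samples numbered 3 and above name a different group. Replicates 1 and 2 of the CRISPR groups carry a treatment field in the labels, as all NICD samples do, and replicates 3 to 6 do not. Replicates 1 and 2 are called set 1 and replicates 3 to 6 set 2. The labels do not say what else differs between the sets, and both hold both groups. 2 libraries stood apart: the fibroblast genes Col1a1, Col1a2, Col3a1 and Pdgfra summed to 36.3 CPM in guide replicate 1 and to 30.9 CPM in control replicate 1, against at most 0.284 CPM in the other 18 samples. CPM are counts scaled to 1000000 per sample with TMM factors, which even out differences in composition between samples. The guide effect and its difference between sets are given with and without these 2 libraries. The T cell marker list, of which 10 of 13 symbols are in the files, summed to 1070 CPM or more in every sample, with Cd3e, Cd3d and Cd3g present throughout and Cd8a and Cd5 at or below 0.497 CPM. B cell markers summed to at most 0.482 CPM. In bulk RNA, fewer cells of a type and less RNA per cell cannot be told apart.

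Promoter windows of RefSeq (build GRCm38.p6, 250 bases before to 50 bases after a start) were at hand for 9 of the 10 genes, in 16 windows. The letters TGGGAA, the core that RBPJ binds, were searched on both strands, and 25.6% of 32851 mouse promoter windows hold them at least once. They occur in 1 of the 3 windows of Bmf, at 146 and 37 bases before the start, and in 1 window of Bax, at 137 bases before the start. The Bmf window is shown because Bmf was the BH3-only gene with the largest difference in both the guide and the BioNICD comparisons. It lies at chr2:118544538-118544837 on the minus strand, and capitals mark TGGGAA.
Bmf: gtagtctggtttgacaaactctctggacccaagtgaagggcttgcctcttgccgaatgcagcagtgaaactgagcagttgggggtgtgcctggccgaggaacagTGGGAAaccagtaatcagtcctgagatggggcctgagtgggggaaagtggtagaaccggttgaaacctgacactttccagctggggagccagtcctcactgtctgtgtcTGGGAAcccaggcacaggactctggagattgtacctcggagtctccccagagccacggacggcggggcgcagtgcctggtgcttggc
The FOXO core TGTTTAC occurs in 3.65% of all windows, searched in the same way. Bbc3 holds it in the window at chr7:16310011-16310310 (plus strand), 167 bases before the start. Bcl2l11 holds its reverse complement GTAAACA in the window at chr2:128125788-128126087 (plus strand), 227 bases before the start. Both windows are shown with the core in capitals, because these BH3-only genes moved in the same direction with the guides and in opposite directions with 4-OHT.
Bbc3: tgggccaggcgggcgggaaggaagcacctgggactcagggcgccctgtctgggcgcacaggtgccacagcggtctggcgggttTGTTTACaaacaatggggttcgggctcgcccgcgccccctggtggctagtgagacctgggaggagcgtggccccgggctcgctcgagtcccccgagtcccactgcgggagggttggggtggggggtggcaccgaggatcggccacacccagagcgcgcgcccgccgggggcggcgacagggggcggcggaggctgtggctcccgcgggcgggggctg
Bcl2l11: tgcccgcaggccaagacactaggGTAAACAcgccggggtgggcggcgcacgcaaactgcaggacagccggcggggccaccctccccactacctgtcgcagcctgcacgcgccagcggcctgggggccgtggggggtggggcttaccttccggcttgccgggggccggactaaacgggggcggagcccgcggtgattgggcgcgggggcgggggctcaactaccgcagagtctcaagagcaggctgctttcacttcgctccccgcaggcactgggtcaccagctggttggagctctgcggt
No member window held the STAT core TTCNNNGAA (in 8.30% of all windows) or the interferon response core, which is GAAA at both ends of any 2 bases (in 3.44%). The window of Bcl2, at chr1:106714241-106714540 on the minus strand, is the most CpG-rich of those shown, with 44 CpG and 76% G and C, and 97.8% of all promoter windows have fewer CpG. That of Bak1, at chr17:27028578-27028877 on the minus strand, has 11 CpG and 58.3% G and C. The pair is shown because Bcl2 and Bak1 moved in opposite directions between the BioNICD groups, and capitals mark each CG.
Bcl2: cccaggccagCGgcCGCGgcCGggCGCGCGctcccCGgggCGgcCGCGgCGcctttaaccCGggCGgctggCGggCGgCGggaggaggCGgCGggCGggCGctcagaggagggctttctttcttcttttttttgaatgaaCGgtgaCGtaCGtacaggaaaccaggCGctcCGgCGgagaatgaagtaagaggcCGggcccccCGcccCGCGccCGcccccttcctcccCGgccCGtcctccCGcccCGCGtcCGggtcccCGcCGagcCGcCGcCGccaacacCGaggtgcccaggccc
Bak1: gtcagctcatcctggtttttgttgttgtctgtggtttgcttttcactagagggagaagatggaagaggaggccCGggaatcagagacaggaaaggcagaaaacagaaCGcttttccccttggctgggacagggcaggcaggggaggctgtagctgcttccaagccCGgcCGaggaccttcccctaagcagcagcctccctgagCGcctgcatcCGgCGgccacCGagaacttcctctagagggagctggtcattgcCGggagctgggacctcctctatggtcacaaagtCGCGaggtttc
The median over all windows is 7 CpG and 52.7% G and C, and 14 of the 16 member windows lie above that number of CpG. A match of letters is a description of the sequence and does not show that a factor binds there.

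Per kb of exon, which makes genes comparable, Bak1 had the highest mean level of the members and Mcl1 led the antiapoptotic members in all 6 groups. Bax averaged above Mcl1 in guide samples (67.6 and 66.6 CPM per kb) and in controls, and below it in the 4 NICD groups (41.1 to 50.5 for Bax and 54.8 to 76.5 for Mcl1). In CRISPR controls the mean levels were 88.9 CPM per kb for Bak1, 66.9 for Bax, 51.95 for Mcl1, 7.11 for Bcl2 and 5.11 for Bcl2l1. Among the BH3-only genes they were 11.1 CPM per kb for Bid, 9.29 for Bbc3, 6.39 for Bcl2l11 and 0.792 for Bmf. Bmf stood lowest of the 9 genes that were clearly present in controls. Pmaip1 had 4 counts over all 20 samples, 3 of them in BioNICD wild type and 1 in NICD-ER ethanol. A count of 0 allows up to 3 counts, which is 0.28 CPM in the shallowest sample and 0.0622 CPM in the deepest, so NOXA mRNA was not detectable beyond that depth and Pmaip1 passed the filter on low counts in no comparison. The other 9 genes passed it in each comparison, so all 9 were tested everywhere. On mm9, the build of the count files, no exon of the 10 genes overlaps an exon of another gene in the annotation used for counting.

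**Figure D1:**
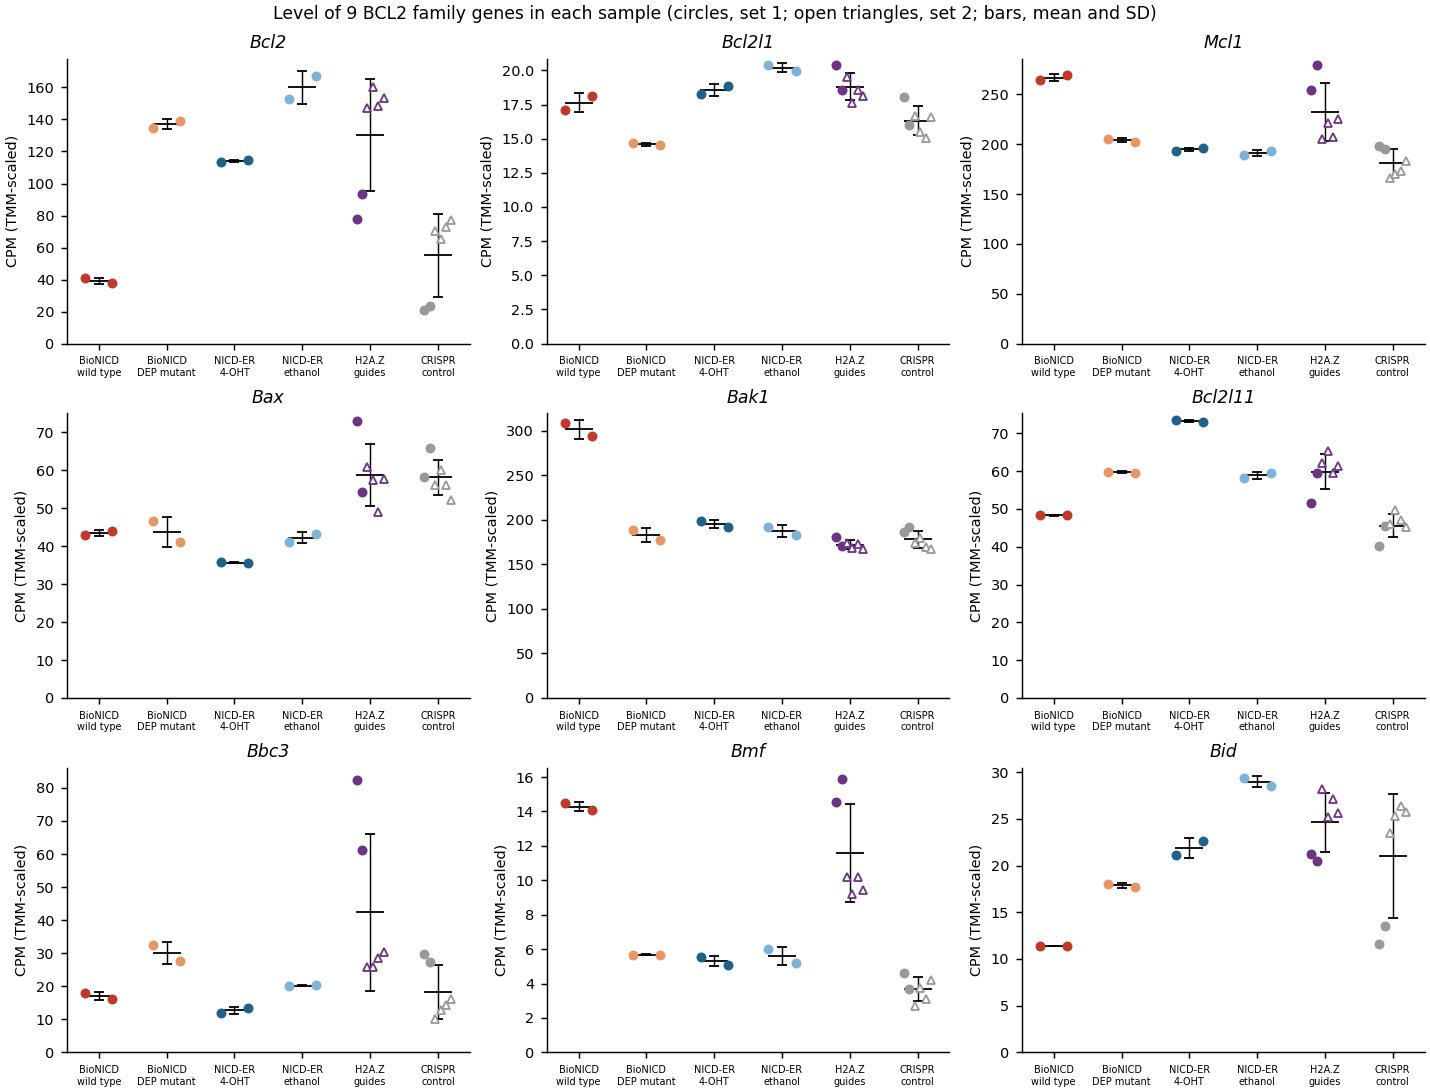
Level of 9 BCL2 family genes in CPM (TMM-scaled counts, y axes starting at 0) in each of the 20 samples, by group on the x axes. Filled circles are samples of set 1, open triangles samples of set 2, and bars the mean and SD. Bcl2, Mcl1, Bbc3 and Bid differ between sets without overlap in both CRISPR groups, and Bmf does in the guide samples. Bak1 is highest in both BioNICD wild type samples (309 and 294 CPM).

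Bcl2 (mm9 chromosome 1, 108434755 to 108610867, minus strand, 2 exons after merging) spanned the widest range of group means, 2.03 on the log2 scale. Its order was NICD-ER ethanol, DEP mutant, H2A.Z guides, NICD-ER 4-OHT, CRISPR control and BioNICD wild type, with means of 160.0, 137, 130.1, 114, 55.02 and 39.2 CPM. Sample ranges of neighbours in that order overlapped except between NICD-ER ethanol and the DEP mutant and between NICD-ER 4-OHT and control. Bmf (chromosome 2, 118354493 to 118375414, minus strand, 5 exons) followed with a span of 1.96, and stood highest in BioNICD wild type and the guide samples, whose ranges overlapped. Bbc3 (chromosome 7, 16894932 to 16903683, plus strand, 4 exons) spanned 1.73 and Bid (chromosome 6, 120843137 to 120866838, minus strand, 6 exons) 1.35. The narrowest spans were those of Bcl2l1 (chromosome 2, 152584468 to 152657464, minus strand, 7 exons) at 0.47 and Mcl1 (chromosome 3, 95462643 to 95467101, plus strand, 4 exons) at 0.56. Bak1 (chromosome 17, 27156757 to 27165571, minus strand, 6 exons) spanned 0.81, Bax (chromosome 7, 52717065 to 52722268, minus strand, 6 exons) 0.72 and Bcl2l11 (chromosome 2, 127951774 to 127988283, plus strand, 6 exons) 0.68. Pmaip1 lies on chromosome 18, 66618258 to 66625212, plus strand, with 3 exons.

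Among the antiapoptotic members Mcl1, Bcl2 and Bcl2l1, the makeup of the transcripts differed between groups mainly in the share held by Bcl2. Of the summed level per kb of Mcl1, Bcl2 and Bcl2l1, Bcl2 made up on average 5.82% in BioNICD wild type and 21.9% in the DEP mutant, 19.3% with 4-OHT and 25.2% with ethanol, and 19.0% in guide samples and 11.1% in controls. The CRISPR groups overlapped in this share, at 11.3 to 23.1% in guide samples and 4.18 to 14.8% in controls. Mcl1 made up 87.8% in BioNICD wild type and 72.4% in the DEP mutant, which is its highest share of the 6 groups. The summed level itself averaged 87.1 ± 0.983 CPM per kb in BioNICD wild type and 80.8 ± 0.187 in the DEP mutant (SD, n = 2 each), and 89.3 ± 5.09 in guide samples and 64.2 ± 2.21 in controls (SD, n = 6 each). Guide samples thus held more transcript of these members per length than any control did. Their lowest sum was 83.9 and the highest control sum 67.8 CPM per kb. The antiapoptotic gene Bcl2l2 is not a member and is left out of these sums. It went the other way, with means of 3.57 CPM per kb in guide samples and 11.8 in controls. The BH3-only sum averaged 45.4 ± 10.6 CPM per kb in guide samples and 27.6 ± 1.60 in controls (SD, n = 6 each). It was 29.4 ± 0.972 with 4-OHT and 35.0 ± 0.243 with ethanol, and 24.5 ± 0.717 in BioNICD wild type and 34.3 ± 1.83 in the DEP mutant (SD, n = 2 each). Pmaip1 is counted in this sum, with a group mean of at most 0.0155 CPM per kb. These sums and shares are descriptions and were not tested.

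**Figure D2:**
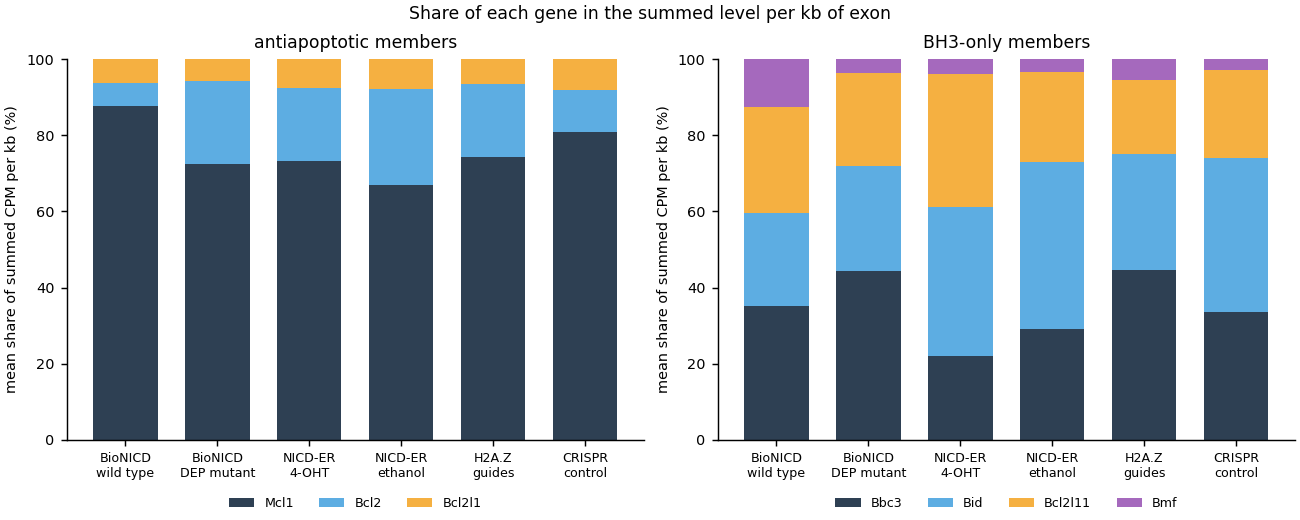
Mean share (%) of each gene in the summed CPM per kb of the antiapoptotic members (left) and of the BH3-only members (right), by group. Pmaip1 is counted in the BH3-only sum but not drawn. Bcl2 takes 5.82% in BioNICD wild type and 21.9% in the DEP mutant, and Bmf takes 12.6% and 3.58% of the BH3-only sum in these groups.

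H2A.Z guide samples were set against CRISPR controls to ask what loss of H2A.Z does to these genes. All guide samples count as the same line, so loss of H2A.Z cannot be told apart from other differences of that line. With the guides, 7 of the 9 tested members rose and 0 fell. Bmf, which links cytoskeletal and other stresses to BCL2 proteins, rose 3.08-fold, Bcl2 2.50-fold and Bbc3 2.22-fold. Mcl1, Bcl2l11, Bcl2l1 and Bid rose by 1.15- to 1.31-fold. The effectors Bax and Bak1 did not pass the test. At an unadjusted p under 0.05, and with DESeq2, the count of members lower was likewise 0. Of all 10662 genes tested, 64.5% were called in this comparison, 31.8% higher and 32.7% lower, at an adjusted p under 0.05 of edgeR's quasi-likelihood test. The members' count stands beside a background in which higher and lower calls were about equally frequent, and the members' median log2 fold change was 0.35, against -0.0081 over all genes tested.

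Among the antiapoptotic members, Bcl2 lay between 77.9 and 160.3 CPM (median 148) in the 6 guide samples and between 21.1 and 77.5 CPM (median 67.7) in the 6 controls. Every guide sample was above every control, although guide samples of set 1 (77.9 and 93.3 CPM) lay only just above the highest control of set 2 (77.5 CPM). The log2 fold change was 1.32 (adjusted p 3.6e-08, SE 0.11). For Mcl1, whose protein turns over quickly, guide samples ran from 205 to 279.7 CPM (median 223) and controls from 166 to 199 CPM (median 178). The groups did not overlap, and the log2 fold change was 0.35 (adjusted p 3.69e-06, SE 0.044). Bcl2l1, which encodes the antiapoptotic BCL-XL and, by splicing, a proapoptotic short form that these gene counts do not separate, ran from 17.6 to 20.4 CPM (median 18.6) in guide samples and from 15.1 to 18.1 CPM (median 16.3) in controls. Its ranges overlapped, and the log2 fold change was 0.20 (adjusted p 0.0107, SE 0.062).

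The effectors showed overlapping ranges. Bax, a cytosolic protein that moves to mitochondria when activated, ran from 48.9 to 73.1 CPM (median 57.6) in guide samples and from 52.2 to 65.8 CPM (median 57.3) in controls, a log2 fold change of 0.0070 (adjusted p 0.941, SE 0.073). Bak1, whose product BAK resides in the outer membrane, ran from 167 to 180.3 CPM (median 171) in guide samples and from 168 to 192 CPM (median 177) in controls, a log2 fold change of -0.054 (adjusted p 0.219, SE 0.037). A p that misses the threshold does not show that these genes were unaffected.

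The BH3-only gene Bmf had the largest change of the members. It ran from 9.20 to 15.9 CPM (median 10.2) in guide samples and from 2.68 to 4.61 CPM (median 3.72) in controls and the lowest guide sample stood well above the highest control. Its log2 fold change was 1.62 (adjusted p 3.81e-09, SE 0.11), and 4.46% of all genes tested had a larger absolute change. Bbc3 ran from 25.9 to 82.4 CPM (median 29.4) in guide samples and from 9.96 to 29.8 CPM (median 15.2) in controls. These ranges overlapped over both sets but not within a set: in set 2 guide samples held 25.9 to 30.4 CPM and controls 9.96 to 16.1 CPM, and in set 1 guide samples held 82.4 and 61.1 CPM and controls 29.8 and 27.2 CPM. With the set in the model, the log2 fold change of Bbc3 was 1.15 (adjusted p 1.12e-07, SE 0.11). Bcl2l11 ran from 51.5 to 65.4 CPM (median 60.4) in guide samples and from 40.2 to 49.8 CPM (median 45.6) in controls, without overlap, with a log2 fold change of 0.39 (adjusted p 6.21e-06, SE 0.051). Bid, which caspase-8 cleaves to connect death receptors with mitochondria, ran from 20.5 to 28.2 CPM (median 25.4) in guide samples and from 11.7 to 26.4 CPM (median 24.4) in controls, with overlap. Its log2 fold change was 0.25 (adjusted p 0.0291, SE 0.095), and that call was lost when control replicate 1 (adjusted p 0.0664), control replicate 2 (0.0753) or guide replicate 2 (0.0635) was left out, and with no set in the model (0.357).

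**Figure D3:**
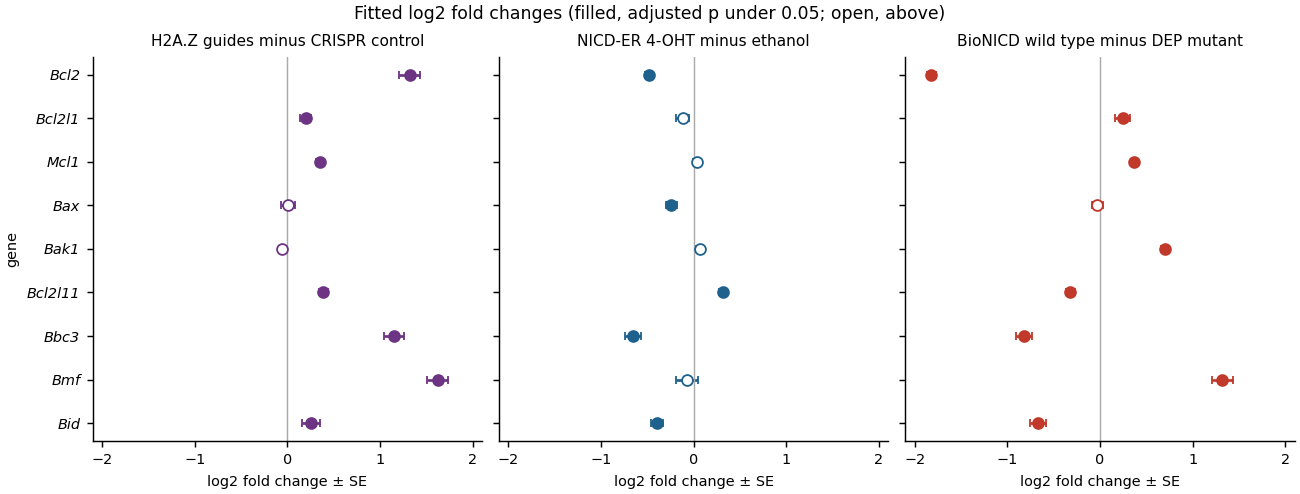
Fitted log2 fold change ± SE of 9 members in 3 comparisons, each named above its panel. Filled points passed an adjusted p of 0.05 and open points did not. Bcl2 lies at 1.32 with the guides, at -0.48 with 4-OHT and at -1.82 in BioNICD wild type, and Bmf at 1.62, -0.075 and 1.32.

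The size of the guide effect on Bcl2 and Bid differed between the sets. Fitted within set 2 alone the log2 fold change of Bcl2 was 1.10, and within set 1 alone it was 1.94. The set difference (set 2 minus set 1) was -0.85 (adjusted p 0.000374, SE 0.12) on the log2 scale. Bid had 0.074 within set 2 (adjusted p 0.275) and 0.72 within set 1, a difference of -0.65 (adjusted p 0.00331, SE 0.13). These 2 of 9 members passed the test of the difference, both in the negative direction, against 15.7% of all genes tested (8.19% positive, 7.49% negative). The controls themselves lay apart for both genes: Bcl2 held 65.03 to 77.5 CPM in controls of set 2 and 21.1 and 23.3 CPM in controls of set 1, and Bid 23.5 to 26.4 CPM in controls of set 2 and 11.7 and 13.5 CPM in controls of set 1. Bmf, Bbc3, Mcl1 and Bcl2l11 had fitted values of the same sign in both sets, 1.51 and 1.87 for Bmf in sets 2 and 1. The set difference of Bbc3 was -0.27 (adjusted p 0.413) and did not pass the test. With 1 sample left out each time it ran from -0.48 to -0.046, lowest without guide replicate 2. In set 1 alone, Bcl2l11 (0.37, adjusted p 0.08) and Bcl2l1 (0.18, adjusted p 0.386) missed the threshold. Without the 2 libraries that held fibroblast RNA, 6 members rose and 0 fell: Bmf stood at 1.63, Bcl2 at 1.23 and Bbc3 at 1.09, while Bid (0.16, adjusted p 0.0796) lost its call. The set difference without these libraries was -0.91 (adjusted p 6.83e-05) for Bcl2 and -0.53 (adjusted p 0.0244) for Bid, with 1 sample per group left in set 1, assumed to vary like those of set 2.

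**Figure D4:**
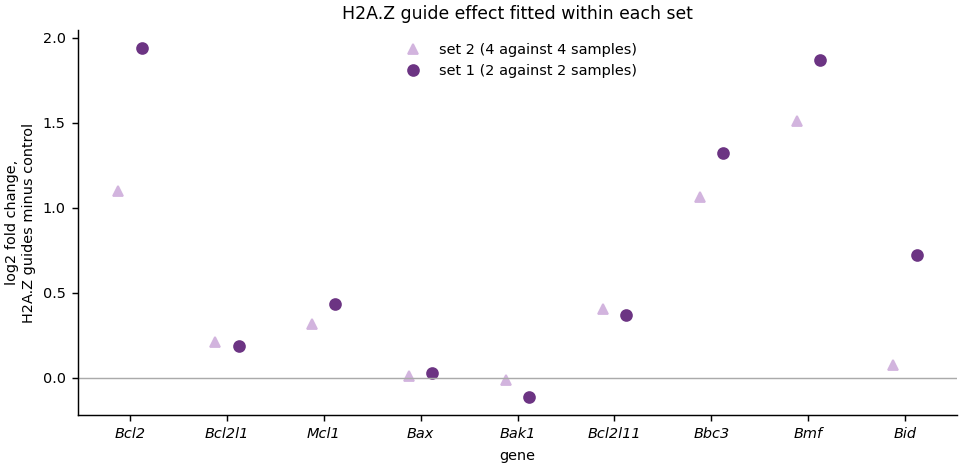
Log2 fold change of the guide samples over CRISPR controls (y axis) for 9 members (x axis), fitted within set 2 alone (pale triangles, 4 against 4 samples) and within set 1 alone (dark circles, 2 against 2 samples). Bcl2 lies at 1.10 in set 2 and 1.94 in set 1, and Bid at 0.074 and 0.72. The other 7 genes lie closer together.

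Genes around the family were read from lists chosen by function. Of 16 further BCL2 family genes, 7 passed the filter with the guides, of which 4 fell and the other 3 did not pass the test. Bcl2l2, which encodes the antiapoptotic BCL-W, averaged 12.4 ± 2.69 CPM in guide samples and 40.9 ± 3.08 CPM in controls (SD, n = 6 each), which was -1.74 (SE 0.11) on the log2 scale, opposite to Bcl2 and Mcl1. Bcl2l15 fell by 1.47 and the mitophagy receptor gene Bnip3 fell by 0.80 on the log2 scale. In the death receptor pathway, 7 of 8 tested genes rose and 1 fell: Fadd, the adaptor of death receptors, averaged 10.1 ± 1.72 CPM in guide samples and 5.09 ± 0.805 CPM in controls (SD, n = 6 each; log2 0.98 (SE 0.089)), Tradd had 0.80 (SE 0.079), and Fas, a receptor, had -0.86 (SE 0.26) with overlapping groups, at 0.746 ± 0.212 CPM in guide samples and 1.35 ± 0.557 CPM in controls. Of 15 genes of the mitochondrial pathway and the caspases, 4 rose and 6 fell. Their largest changes were in Cycs (-0.85 (SE 0.21)), the cytochrome c gene whose counts are uncertain because of its pseudogenes, in Dffb (-0.66 (SE 0.068)), the apoptotic nuclease, and in Htra2 (0.62 (SE 0.061)), a mitochondrial protease. Of 5 inhibitor of apoptosis genes, 2 rose and 3 fell, with Birc3 at 0.61 (SE 0.051), Birc5 at -0.32 (SE 0.044) and Xiap at -0.29 (SE 0.068). Of 5 tested genes for MCL1 turnover, 2 rose and 1 fell, and Fbxw7, a ubiquitin ligase subunit that targets MCL1 and MYC, had 0.88 (SE 0.037).

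Regulators were mixed with the guides. In a list of 9 tested transcription factors of BCL2 family genes and the p53 regulators Mdm2 and Mdm4, 3 rose and 3 fell, Mdm2 (-0.28) being 1 of those that fell, with Atf4 at -0.86 (SE 0.037), Myc at 0.52 (SE 0.052) and Myb at 0.45 (SE 0.058). Of 10 tested p53 target genes outside the family, 4 rose and 1 fell, led by Sesn1 (0.91 (SE 0.038)), Trp53inp1 (0.75 (SE 0.088)) and Sesn2 (0.58 (SE 0.059)). Their list median was 0.047, against -0.0081 over all genes tested. In the T cell marker list, 4 of 8 tested genes rose and 2 fell. Cd247, a chain of the T cell receptor complex, averaged 19.1 ± 5.63 CPM in guide samples and 0.0846 ± 0.0788 CPM in controls, and Cd4, the coreceptor gene, 108 ± 59.1 CPM in guide samples and 5.11 ± 0.912 CPM in controls (SD, n = 6 each). Lck, a kinase of T cell receptor signalling, had -1.51 (SE 0.074) and the adhesion gene Cd2 -1.52 (SE 0.10). The part of these marker differences in the member values was not tested.

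NICD-ER cells with 4-OHT against the same cells with ethanol address the change within 24 h of activating NICD. Of the 9 tested members, 1 rose and 4 fell. Bcl2l11 rose 1.25-fold, and Bcl2, Bbc3, Bid and Bax fell. Mcl1, Bak1, Bcl2l1 and Bmf did not pass the test. Of all 12499 genes tested, 36.2% were called, 19.0% higher and 17.2% lower, and the members' median log2 fold change was -0.12, against -0.00045 over all genes tested.

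Bcl2 had 114 and 115 CPM with 4-OHT and 153 and 167 CPM with ethanol. Both 4-OHT samples were below both ethanol samples, and the log2 fold change was -0.48 (adjusted p 4.01e-09, SE 0.043). Mcl1 had 194 and 196 CPM with 4-OHT and 189 and 194 CPM with ethanol. The pairs lay hardly apart, with a log2 fold change of 0.030 (adjusted p 0.53, SE 0.034). Bcl2l1 had 18.3 and 18.8 CPM with 4-OHT and 20.4 and 19.95 CPM with ethanol, at a log2 fold change of -0.12 (adjusted p 0.213, SE 0.071).

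Among the effectors, Bax had 35.7 and 35.6 CPM with 4-OHT and 41.2 and 43.3 CPM with ethanol, a log2 fold change of -0.24 (adjusted p 0.00263, SE 0.060). Bak1 had 199 and 192 CPM with 4-OHT and 192 and 183 CPM with ethanol, a log2 fold change of 0.066 (adjusted p 0.208, SE 0.039). The 4-OHT samples lay below the ethanol samples for Bax, and just above them for Bak1, where the test was not passed.

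The BH3-only genes moved apart. Bcl2l11 had 73.5 and 72.97 CPM with 4-OHT and 58.2 and 59.5 CPM with ethanol, the highest level of BIM mRNA in the series and a log2 fold change of 0.32 (adjusted p 3.78e-06, SE 0.044). Bbc3 had 12.03 and 13.5 CPM with 4-OHT and 20.1 and 20.3 CPM with ethanol, a log2 fold change of -0.66 (adjusted p 1.65e-06, SE 0.086). For Bid the values were 21.1 and 22.6 CPM with 4-OHT and 29.4 and 28.6 CPM with ethanol, a log2 fold change of -0.40 (adjusted p 3.24e-05, SE 0.065). In all 3 genes the groups did not overlap, with 4-OHT above ethanol for Bcl2l11 and below it for Bbc3 and Bid. Bmf had 5.53 and 5.08 CPM with 4-OHT and 5.99 and 5.21 CPM with ethanol, overlapping, with a log2 fold change of -0.075 (adjusted p 0.671, SE 0.12). The calls rest on the small spread of the 8 NICD samples: in a model of all 20 samples with a coefficient per group, whose CRISPR groups each hold both sets, 0 members and 880 genes passed the test, 1 member at an unadjusted p under 0.05. With a coefficient per group and set in that model, 1 member rose, 3 fell and 2889 genes passed, Bax being the one lost (-0.25, adjusted p 0.0999).

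Of the 8 tested further BCL2 family genes, 2 rose and 1 fell with 4-OHT. Bcl2l14 averaged 7.59 ± 0.746 CPM with 4-OHT and 1.14 ± 0.169 CPM with ethanol (SD, n = 2 each), which was 2.73 (SE 0.19) on the log2 scale. Bcl2l2 had 0.20 (SE 0.060) and Bnip3 -0.42 (SE 0.042). Among the 15 genes of the mitochondrial pathway and the caspases, 5 rose and 3 fell, and the initiator caspase gene Casp9 rose by 0.48 (SE 0.065) on the log2 scale. Of 5 inhibitor of apoptosis genes 2 rose and 1 fell, with Xiap at 0.38 (SE 0.044), Birc5 at 0.35 (SE 0.045) and Birc3 at -0.29 (SE 0.053). In the death receptor list 2 of 8 tested genes rose, Casp8 (0.22 (SE 0.038)) and Traf2 (0.19 (SE 0.059)), and the other 6 did not pass the test. In the list of transcription factors with Mdm2 and Mdm4, 2 of 11 tested genes rose (Foxo1 at 0.20 and Mdm4 at 0.13) and 3 fell: Myc, which averaged 109 ± 0.805 CPM with 4-OHT and 229.7 ± 1.77 CPM with ethanol (SD, n = 2 each), had -1.08 (SE 0.038), Myb -0.40 (SE 0.034) and Foxo4 -0.38 (SE 0.069). Of 10 tested p53 targets 3 rose and 1 fell, with Sesn1 at -0.43 (SE 0.036), Polk at 0.25 (SE 0.065) and Cdkn1a at 0.22 (SE 0.051). Of 5 tested MCL1 turnover genes, Fbxw7 rose (0.16 (SE 0.038)) and the other 4 did not pass the test.

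BioNICD wild type against the DEP mutant compares cells with the wild type form of tagged NICD to cells with the mutant form. Other differences between these cells cannot be told apart from the form of NICD. Of the 9 tested members, 4 rose and 4 fell in wild type. Bmf rose 2.49-fold, Bak1 1.63-fold, Mcl1 1.29-fold and Bcl2l1 1.19-fold, and Bcl2 fell to 0.284 times its level in the mutant. Bbc3, Bid and Bcl2l11 fell too, and Bax did not pass the test. Of all 12499 genes tested, 65.6% were called, 32.0% higher and 33.6% lower, and the members' median log2 fold change was -0.029, against -0.022 over all genes tested.

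Bcl2 had 40.7 and 37.8 CPM in BioNICD wild type and 135 and 139 CPM in the DEP mutant. Both wild type samples were far below the mutant samples, and the log2 fold change was the largest absolute one of any member in the guide, 4-OHT and BioNICD comparisons, at -1.82 (adjusted p 2.14e-19, SE 0.050). Mcl1 had 264 and 269 CPM in wild type and 205 and 203 CPM in the DEP mutant, a log2 fold change of 0.37 (adjusted p 2.27e-09, SE 0.035). Wild type samples were below the mutant samples for Bcl2 and above them for Mcl1. Bcl2l1 had 17.1 and 18.1 CPM in wild type and 14.7 and 14.5 CPM in the DEP mutant, a log2 fold change of 0.24 (adjusted p 0.0123, SE 0.083). That call was lost without wild type replicate 2 (adjusted p 0.0504) and without DEP mutant replicate 2 (0.0806).

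Bak1 had 309 and 294 CPM in BioNICD wild type and 189 and 178 CPM in the DEP mutant, a log2 fold change of 0.70 (adjusted p 3.18e-13, SE 0.040). Both wild type samples also stood above all 18 other samples, the highest of which held 199 CPM. Bax had 42.9 and 44.1 CPM in wild type and 46.6 and 41.1 CPM in the DEP mutant, with the wild type values inside the mutant range and a log2 fold change of -0.029 (adjusted p 0.707, SE 0.063). Of the effector sum per kb, Bak1 made up 75.1% in wild type and 64.5% in the DEP mutant.

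Bmf had 14.5 and 14.1 CPM in BioNICD wild type and 5.66 and 5.68 CPM in the DEP mutant, a log2 fold change of 1.32 (adjusted p 6.96e-10, SE 0.12). Bbc3 had 17.97 and 16.1 CPM in wild type and 32.4 and 27.8 CPM in the DEP mutant, a log2 fold change of -0.82 (adjusted p 1.36e-08, SE 0.085). The groups lay apart in both genes, above the mutant for Bmf and below it for Bbc3. Bid had 11.4 and 11.4 CPM in wild type and 18.04 and 17.7 CPM in the DEP mutant, a log2 fold change of -0.67 (adjusted p 2.51e-07, SE 0.084). Bcl2l11 had 48.4 and 48.3 CPM in wild type and 59.9 and 59.5 CPM in the DEP mutant, a log2 fold change of -0.32 (adjusted p 4.15e-06, SE 0.049). Wild type samples were below mutant samples in Bid and Bcl2l11. In the model of all 20 samples with a coefficient per group, Bbc3 (adjusted p 0.209) and Bid (0.0663) lost their calls, and with a coefficient per group and set 4 rose and 4 fell. Wild type samples also held RNA of genes known from other cells. The NK list summed to 95.8 to 99.1 CPM, nearly all Nkg7, in wild type and to at most 0.354 CPM in the DEP mutant. Of its other genes, Ncr1 held 2.01 to 2.33 CPM in wild type and 0 counts in the DEP mutant. Eomes and Klrb1c had 0 counts in both wild type samples. The myeloid list summed to 61.9 to 63.2 CPM, nearly all Itgam, in wild type and to at most 0.767 CPM in the DEP mutant, with Lyz2, Csf1r and Cd14 near 0. Their part in the member values was not tested.

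Around the family, the death receptor list rose in all 8 tested genes in BioNICD wild type, with a median log2 fold change of 0.64. Casp8, the initiator caspase that cleaves BID, averaged 247 ± 3.04 CPM in wild type and 118 ± 0.0780 CPM in the DEP mutant (SD, n = 2 each; log2 1.05 (SE 0.040)), while Bid itself fell. Fas had 1.48 (SE 0.25), at 4.21 ± 1.04 CPM in wild type and 1.55 ± 0.0630 CPM in the DEP mutant, and Tnfrsf1a, a TNF receptor, 0.88 (SE 0.062). Of 8 tested further BCL2 family genes 3 rose and 2 fell, with Bcl2l14 at 2.61 (SE 0.34), Bcl2l15 at 0.96 (SE 0.16) and Bnip3l, a mitophagy receptor gene, at -0.40 (SE 0.060). Of 15 mitochondrial pathway and caspase genes 6 rose and 5 fell, with Casp9 at 0.80 (SE 0.073) and Dffa, the inhibitor of the apoptotic nuclease, at 0.76 (SE 0.083). Of 5 inhibitor of apoptosis genes 2 rose and 3 fell, with Birc3 at 0.45 (SE 0.056), Xiap at 0.36 (SE 0.046) and Birc5 at -0.19 (SE 0.048). Of 5 tested MCL1 turnover genes 1 rose and 2 fell, Btrc at 0.24 (SE 0.082), Huwe1, a ubiquitin ligase for MCL1, at -0.29 (SE 0.036) and Usp9x, a deubiquitinase for MCL1, at -0.20 (SE 0.042).

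In the list of transcription factors with Mdm2 and Mdm4, 3 of 11 tested genes rose and 7 fell in BioNICD wild type, Mdm2 (0.14) among those that rose and Mdm4 (-0.60) among those that fell. Trp53, the gene of p53, had the largest fitted change (-1.61 (SE 0.28)), which came from 1 library: it averaged 69.1 ± 2.43 CPM in wild type, while the 2 DEP mutant samples held 91.7 and 330 CPM. Myb, which is known to sustain Bcl2 in T cells, averaged 119 ± 1.16 CPM in wild type and 249 ± 9.10 CPM in the DEP mutant (SD, n = 2 each; log2 -1.09 (SE 0.036)), and Myc had -0.89 (SE 0.039). Of 10 tested p53 targets 6 rose and 3 fell, with Cdkn1a at 0.80 (SE 0.047), Btg2 at 0.64 (SE 0.045) and Zmat3 at 0.56 (SE 0.086), a list median of 0.40 against -0.022 over all genes, while the p53 target Bbc3 fell.

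The NICD-ER and BioNICD effects differed for most members. Tested directly as the NICD-ER effect minus the BioNICD effect, 3 of 9 members passed in the positive and 5 in the negative direction, against 51.5% of all genes (26.4% positive, 25.1% negative). The difference was 1.33 (adjusted p 8.43e-14, SE 0.066) for Bcl2, which fell in both comparisons, at -0.48 with 4-OHT and -1.82 in BioNICD wild type. For Bmf it was -1.39 (adjusted p 2.76e-07, SE 0.17), since Bmf had -0.075 with 4-OHT and 1.32 in BioNICD wild type. Bcl2l11 moved in opposite directions, 0.32 with 4-OHT and -0.32 in BioNICD wild type, a difference of 0.64 (adjusted p 2.68e-08, SE 0.066). Bak1 differed by -0.64 (adjusted p 2.17e-09, SE 0.056), Mcl1 by -0.34 (adjusted p 3.5e-06, SE 0.048) and Bcl2l1 by -0.36 (adjusted p 0.00771, SE 0.11). Bax (-0.21, adjusted p 0.0447) and Bid (0.27, adjusted p 0.039) passed narrowly. The call of Bax was lost without any single one of 6 samples, all but DEP mutant replicate 1 and ethanol replicate 1 (adjusted p 0.0578 to 0.35), and that of Bid without any single one of 7 samples, all but 4-OHT replicate 1 (0.0543 to 0.153). Bbc3 fell in both comparisons, and its difference of 0.16 (adjusted p 0.28, SE 0.12) did not pass the test, which does not show that the effects were equal. Vector, tag and selection also differ between the NICD-ER and the BioNICD lines and cannot be told apart from the length of exposure to NICD.

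**Figure D5:**
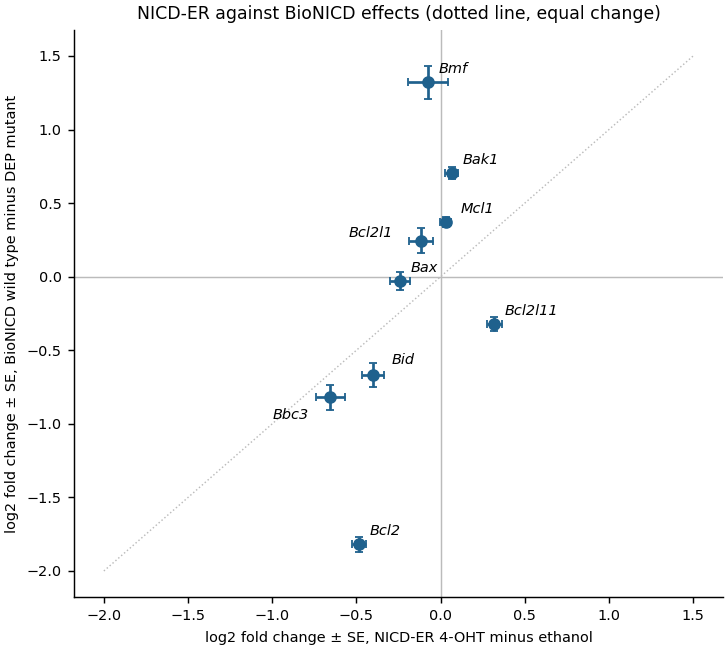
Log2 fold change ± SE with 4-OHT in NICD-ER cells (x axis) and in BioNICD wild type over the DEP mutant (y axis) for 9 members. The dotted line marks equal change. Bcl2l11 lies right of and below 0 (0.32 and -0.32), Bmf and Bak1 lie high near the middle of the x axis, and Bcl2 lies below the dotted line.

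The DEP mutant and the ethanol-treated NICD-ER cells were set against the CRISPR controls to show how the members differ between lines of the same hybridoma. The vector and the selection differ along with the line and cannot be told apart, and both comparisons share the 6 controls. Of these controls only those of set 1 share their label format with the NICD samples, so the set differs in part too. In the DEP mutant over the controls 3 of 9 members were higher and 1 lower, against 26.7% of 11988 genes called (13.9% higher, 12.8% lower). In NICD-ER ethanol over the controls 4 were higher and 1 lower, against 42.9% called (22.7% higher, 20.2% lower). Bcl2 had log2 fold changes of 1.31 in the DEP mutant and 1.52 in NICD-ER ethanol, Bmf 0.64 and 0.61, and Bcl2l11 0.39 and 0.36, all higher, while Bax was lower at -0.40 and -0.47. Bcl2l1 had -0.16 (adjusted p 0.166) in the DEP mutant and 0.30 (adjusted p 0.00374, SE 0.076) in NICD-ER ethanol, where the call was lost against the controls of set 1 alone (0.24, adjusted p 0.0656). With only 1 DEP mutant sample, whose spread is then taken from the other groups, Bcl2 kept fitted values of 1.33 and 1.29 and Bmf 0.64 in both cases, but their calls over the controls were lost (adjusted p 0.072 and 0.0788 for Bcl2, 0.158 in both cases for Bmf). Without DEP mutant replicate 2, Bax (-0.31, adjusted p 0.181) lost its call too.

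Bid had -0.24 (adjusted p 0.459) in the DEP mutant and 0.44 (adjusted p 0.103) in NICD-ER ethanol over all 6 controls. Set 1 shares its label format with the NICD samples. Against its 2 controls alone, Bid had 0.50 (adjusted p 0.0239) in the DEP mutant and 1.19 (adjusted p 2.38e-05) in NICD-ER ethanol. The direction in the DEP mutant thus depends on which controls are used. These values rest in part on control replicate 1, which held fibroblast RNA. With control replicate 2 as the only control, Bid had 1.07 in NICD-ER ethanol, and it did not pass the test in the DEP mutant. Bid held 13.5 CPM in that control and 18.04 and 17.7 CPM in the DEP mutant samples. Bcl2 over the set 1 controls had 2.62 in the DEP mutant and 2.84 in NICD-ER ethanol, and Bmf lost its call in both (0.45, adjusted p 0.268, and 0.42, adjusted p 0.241).

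Patterns over the 20 samples were described by Pearson correlation of log2 CPM, over 11987 other genes. The points share the 6 groups and both sets, so the values are descriptions without a test. The genes most like Bcl2 were Zcchc14 (r = 0.957), Simc1 and Dctd (0.931 each). Those most like Bmf were Lgmn (0.952), Gnptab (0.948) and Jak2 (0.943), and those most like Bbc3 were 1110008F13Rik (0.952), Sesn2 (0.951) and Ndfip1 (0.939). Within the family, Mcl1 and Bmf had the highest correlation (0.929), both being highest in BioNICD wild type and in guide samples of set 1, followed by Bcl2 with Bcl2l11 (0.799) and with Bid (0.782), and the lowest was that of Bak1 with Bid (-0.72).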

How the data were processed

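Libraries were made with a stranded kit from total RNA depleted of ribosomal RNA, per the labels' protocols. The submitters' processing notes list FastQC, Trimmomatic, STAR, featureCounts and DESeq2, and mm9 as the build. The deposited values are raw read counts per gene, which the authors made with featureCounts 1.5.0 from exons of a UCSC mm9 annotation, per the file headers. No strand option is set there, so sense and antisense reads are not told apart. No column of sample values was left unused (0 columns).

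The test was edgeR's quasi-likelihood F test (edgeR 4.0.16, R 4.3.3) on these counts, with TMM scaling. Genes passed filterByExpr first, and p-values were adjusted by the Benjamini-Hochberg method across every gene tested (threshold 0.05). Guide samples and controls were fitted together (12 samples) with the set as covariate. The 8 NICD samples were fitted with 1 coefficient for each group, which gave both NICD comparisons and their difference. All 20 samples entered the comparisons of lines with controls. Biological coefficients of variation were 7.95% for the 12 samples (residual degrees of freedom 9), 3.58% for the 8 (4) and 11.2% for all 20 (14). Each SE is the log2 fold change over the root of its F statistic, without sign. Levels are CPM with TMM factors over all 20 samples, and exon lengths are those of the files. The floors given cover counting error only, because these reads carry no molecular identifiers. Alternatives were DESeq2 1.42.0, other scalings, no filter, each sample left out, other covariates and other sample sets. The models were tested on simulated data. Replicate samples differed by more than sampling noise, so none were merged. The mean chi-square per gene ran from 2.66 to 53.6 for pairs within a set and from 21.9 to 92.5 across sets. Set 2 was not uniform: guide replicates 3 and 4 had 2.75, 5 and 6 had 3.23, and 3 and 5 had 48.7. Control replicates 3 and 4 had 3.96, and 3 and 6 had 33.95.

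The members and gene lists were chosen with earlier results of these data known. All members were named. Of each further list, at most the 3 called genes with the largest absolute log2 fold change were named in the guide, 4-OHT and BioNICD comparisons (some genes that this rule picks are not reported here), and genes of like pattern were named for the 3 members with the widest span of group means.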

Additional observations from a re-analysis of the deposited data

Results flagged for a closer look

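In the contrasts of 4-OHT with ethanol and of BioNICD wild type with the DEP mutant, 8 members responded differently in the NICD-ER and the BioNICD cells by the direct test of the difference (edgeR's quasi-likelihood test, adjusted over all genes, NICD-ER effect minus BioNICD effect on the log2 scale). That compares with 51.5% of all genes tested, and the calls of Bax and Bid were lost with DESeq2 and in most fits that left out 1 sample. The positive differences were 1.33 for Bcl2, 0.64 for Bcl2l11 and 0.27 for Bid. The negative ones were -1.39 for Bmf, -0.64 for Bak1, -0.36 for Bcl2l1, -0.34 for Mcl1 and -0.21 for Bax. Bcl2l11 was above ethanol in both 4-OHT samples and below the DEP mutant in both BioNICD wild type samples, and Bcl2 was below its comparison group in both 4-OHT and both BioNICD wild type samples.

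Between the sets, the guide effect (set 2 minus set 1) differed by -0.85 for Bcl2 and by -0.65 for Bid in the same kind of test. In both genes, all 4 guide samples of set 2 stood above both guide samples of set 1, and all 4 controls of set 2 stood above both controls of set 1.

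No single sample stood far from its own group in the 18 sets of 6 CPM values that were checked (9 members in guide samples and in controls), where chance would flag about 1 in 20. The check sets the gap beyond the lowest or highest sample against the range, so 2 samples lying apart together hide each other. It therefore did not flag the Bcl2 controls, at 21.15 and 23.3 CPM in set 1 and 65.03 to 77.49 CPM in set 2.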

How the results depend on the processing

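Of all values recomputed for single members, 910 kept their side of the threshold, 55 lost the call and 4 gained one. A further 3 reversed direction where at least 1 of the fits compared passed the threshold. Changes of sign where neither fit passed it are counted among the 910. With DESeq2, other scalings or no filter, each member kept its call in the guide, 4-OHT and BioNICD comparisons, while in the difference between the NICD effects Bax lost its call with DESeq2 and upper quartile scaling (adjusted p 0.0684 and 0.0534) and Bid with DESeq2, RLE scaling and no filter (0.172, 0.0614 and 0.0669). Genes called in the guide comparison numbered 6874, and 2948 in set 1 alone. In the difference between sets, 1672 genes were called, 851 to 4062 with 1 sample left out each time (fewest without control replicate 1, 1037 without control replicate 2, most without guide replicate 2). Leaving out the 3 samples with the most Rn45s, the ribosomal RNA precursor, gave 447 genes, and Bcl2 and Bid passed in each of these fits. For 4-OHT over ethanol, the 20-sample model with a coefficient per group called 0 members higher, 0 lower and 880 genes, against 4521, and 2889 with a coefficient per group and set. For BioNICD wild type over the DEP mutant the 20-sample model called 2 members lower and 4670 genes, against 8194. Upper quartile scaling gave 1970 higher and 2586 lower genes with 4-OHT, against 2376 and 2145.

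In the DEP mutant over controls, with 1 sample left out each time, 1 to 3 members were higher, 0 to 1 lower and 1370 to 3242 genes called, against 3201, the fewest without a DEP mutant sample (1370 and 1424). In NICD-ER ethanol over controls the range was 3324 (without ethanol replicate 1) to 5257 genes, against 5138. Bid in the DEP mutant reversed to 0.499 with the controls of set 1 only. With control replicate 2 of set 1 as the only control, an alternative added after seeing the data like the models with a coefficient per group and set and those without the samples holding fibroblast marker RNA, 1824 genes were called in the DEP mutant and 3293 in NICD-ER ethanol. The cause of these changes was not tested.

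Samples of the same replicate number shared little: their deviations from group means correlated between -0.156 and 0.211 in the CRISPR groups, 0.216 in the NICD-ER groups and -0.0128 in the BioNICD groups, so the numbers were not taken as pairing samples. With the replicate block, Bid lost its call in the guide comparison (0.257, adjusted p 0.0731), and the 4-OHT and BioNICD calls of the members stayed. Over set 1 controls, the replicate block gave 2 members lower in NICD-ER ethanol, with Bbc3 reversed to -0.518, and Bid reversed to 0.5 in the DEP mutant.

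Depth limits Pmaip1, and 2 samples per NICD group limit all their comparisons.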

Other observations

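Among the 3 genes with the pattern most like Bak1 over the 20 samples were Igtp (r = 0.98) and Iigp1 (0.977), chosen for naming after their values were seen. Both are interferon-inducible GTPase genes. Both BioNICD wild type samples stood above the other 18 in Bak1, and no test was made.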
